A study of Mus musculus with 20 samples.

Results

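Imprinted genes are genes of which the copy from a single parent is expressed, and 10 of them were followed through 20 RNA-seq libraries of NMuMG cells, an untransformed mouse mammary gland epithelial line. The 10 genes were the antisense noncoding RNA Airn and its partner Igf2r, the neighbours H19 and Igf2, the neighbours Kcnq1ot1, Cdkn1c and Phlda2, and Peg3, Grb10 and Meg3. They were chosen by name with their values in these libraries already known, out of 54986 genes in the table, so their levels and differences are given as descriptions without tests. Each gene was matched by its symbol, and all 10 were found. Of the 10, 6 reached 1 count per 1e6 reads (CPM) in at least 2 libraries and entered the fit across genes (Airn, Igf2r, Igf2, Kcnq1ot1, Phlda2 and Peg3), and the 4 that did not were H19, Cdkn1c, Grb10 and Meg3. At that limit, Igf2 passed with 2 libraries at or above 1 CPM, both of E1KD, whereas Grb10 had 0 such libraries and a highest value of 0.477 CPM.

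The study asked how silencing of hnRNP E1 (gene Pcbp1, an RNA-binding protein), TGFβ treatment and the noncoding RNA Platr18 change the transcriptome during epithelial-mesenchymal transition. Every group had 2 libraries and fell into 1 of 2 kinds. The progression series held NMuMG (WT cells), TGFβ (WT cells treated with TGFβ), E1KD (NMuMG with an shRNA against hnRNP E1), and the lines M1P and L1P, which were recovered from a primary tumor and from the lungs after E1KD cells had been injected into the mammary fat pad of NOD/SCID mice. The Platr18 series held Empty vector (NMuMG with the empty overexpression vector), Platr18 clone 12 and Platr18 clone 16 (NMuMG overexpressing Platr18, each a single clone), E1KD SCR (hnRNP E1 shRNA with a scrambled shRNA) and E1KD Platr18 KD (hnRNP E1 shRNA with an shRNA against Platr18). M1P, L1P, E1KD SCR and E1KD Platr18 KD all carried the hnRNP E1 shRNA, M1P and L1P had grown in a mouse and carried a puromycin resistance gene for their selection, and the shRNAs were delivered by lentivirus. Whether the silenced lines of the 2 series arose from separate transductions was not given in the sources used here, so silencing and the history of a single silenced population cannot be told apart. The labels do not say that replicates were separate cultures, so the spread between replicates may be technical.

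The 2 kinds of library differed in composition, with mitochondrial Rnr2 (mt-Rnr2) at 333 to 492 CPM in the progression series and 113874 to 165149 CPM in the Platr18 series, so fold changes were taken only within a series. Depth, read from the value of 1 read, was 50.8 to 60.0 M reads in the progression series and 63.0 to 147 M reads in the Platr18 series, and 3 reads, taken as the floor, were worth at most 0.0591 CPM in the first and 0.0477 CPM in the second. E1KD replicate 1 stood apart, with gene values that summed to 728645 CPM. E1KD replicate 2 summed to 567409 CPM and the next highest library of that series to 581384 CPM. For Airn, Igf2r, Igf2 and Peg3 the comparison of E1KD with NMuMG is also given without E1KD replicate 1. NMuMG had 287 and 312 CPM of Pcbp1 and E1KD 16.6 and 14.2 CPM, while Empty vector had 32.3 and 32.3 CPM and E1KD SCR 3.28 and 3.46 CPM, in the direction of the labels. The epithelial markers Cdh1, Krt8 and Krt18 were present in every library (Cdh1 at 70.1 CPM or more). Krt7, a further epithelial marker, ranged from 0.489 to 18.7 CPM, and Epcam was at 0.0167 CPM or less throughout. The lung markers Sftpc and Sftpa1 and the blood marker Hbb-bs were at 0 in all libraries, the lung isolates included. The lung marker Ager was at 0.0777 to 0.867 CPM and the blood marker Hba-a1 at 0.0290 to 0.453 CPM.

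Imprinting rests on marks that the germ line places at control regions and that every later division keeps. Airn is made from the paternal chromosome, starts inside Igf2r on the opposite strand and keeps the paternal Igf2r copy silent in most tissues. Kcnq1ot1 acts in the same manner on Cdkn1c and Phlda2, while H19 and Igf2 share enhancers that reach a different gene on each parental chromosome. The table holds 1 value a gene and library, so the parental copies were not separated.

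Airn lay at chr17:12741311-12860123 on the plus strand of GRCm38.p6, annotated as an antisense RNA, and the protein-coding Igf2r lay at chr17:12682406-12769665 on the minus strand, so the genes overlapped by 28355 bases and the Airn start fell within Igf2r. The promoters of the pair are shown because their transcripts were the members with the widest opposite differences. Each is the RefSeq window of 300 bases in GRCm38.p6, 250 before and 50 after the start, written in the direction of transcription with CG dinucleotides in capitals, at chr17:12741061-12741360 for Airn and at chr17:12769657-12769956 for Igf2r.
Airn promoter: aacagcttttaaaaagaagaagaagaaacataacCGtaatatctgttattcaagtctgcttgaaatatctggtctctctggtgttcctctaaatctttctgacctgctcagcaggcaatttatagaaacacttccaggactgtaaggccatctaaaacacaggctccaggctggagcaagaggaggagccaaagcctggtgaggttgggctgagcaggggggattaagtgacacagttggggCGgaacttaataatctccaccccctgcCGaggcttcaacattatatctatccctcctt
Igf2r promoter: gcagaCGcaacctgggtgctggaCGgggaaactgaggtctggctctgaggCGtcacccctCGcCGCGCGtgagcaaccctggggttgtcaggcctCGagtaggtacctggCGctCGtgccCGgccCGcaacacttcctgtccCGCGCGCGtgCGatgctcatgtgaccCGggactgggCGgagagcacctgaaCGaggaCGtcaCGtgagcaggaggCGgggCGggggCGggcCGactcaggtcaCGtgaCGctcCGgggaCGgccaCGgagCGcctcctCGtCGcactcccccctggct
The motif CG reads the same on both strands and does not overlap itself. The Airn window held 3, a number that 76.7% of the 32851 promoter windows of the same length reach, and the Igf2r window held 34, which 7.73% reach. At least 1 CG is in 94.6% of all windows. A window was found for 8 of the 10 genes, H19 and Cdkn1c being those without. Methylation was not measured in these libraries.

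Airn was present in every library without the hnRNP E1 shRNA and was at 0 or 1 read in every silenced library. Airn was at 5.59 and 5.56 CPM in NMuMG (replicates 1 and 2), 6.09 and 6.36 CPM after TGFβ, 2.99 and 2.40 CPM in Empty vector, 2.41 and 2.06 CPM in clone 12, and 0.901 and 1.10 CPM in clone 16. These 10 libraries held between 65.0 and 382 Airn reads each. Both E1KD, both E1KD SCR and both E1KD Platr18 KD libraries had 0 reads of Airn, and M1P replicate 1 and L1P replicate 2 had 1 read each, with 0 in their partners. Against the floor of 3 reads a library, Airn was at least 97.4-fold lower in E1KD than in NMuMG and at least 61.1-fold lower in E1KD SCR than in Empty vector, and E1KD was at 0 with or without replicate 1. Fewer cells with Airn and less Airn in each cell cannot be told apart in bulk RNA, here or for the other genes.

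Igf2r, the receptor that carries IGF2 and mannose 6-phosphate-tagged enzymes to lysosomes, was on the other side in each of these groups. NMuMG had 2.64 and 2.83 CPM of Igf2r against 48.9 and 28.4 CPM for E1KD, a 14.1-fold higher mean. The log2 fold change on the log2(CPM + 1) scale, used for every log2 value here, was 3.36 ± 0.16 (SE, n = 2 and 2), and 2.98 without E1KD replicate 1. In the Platr18 series Igf2r was at 5.68 and 5.63 CPM in Empty vector and 83.0 and 82.1 CPM in E1KD SCR, a 14.6-fold higher mean with a log2 fold change of 3.65 ± 0.16. The silenced libraries held 21.3 to 48.9 CPM of Igf2r in the progression series, above the 1.35 to 2.83 CPM of the libraries that were not silenced, and the same held in the Platr18 series with 82.1 to 90.1 CPM against 3.10 to 5.68 CPM.

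**Figure D1:**
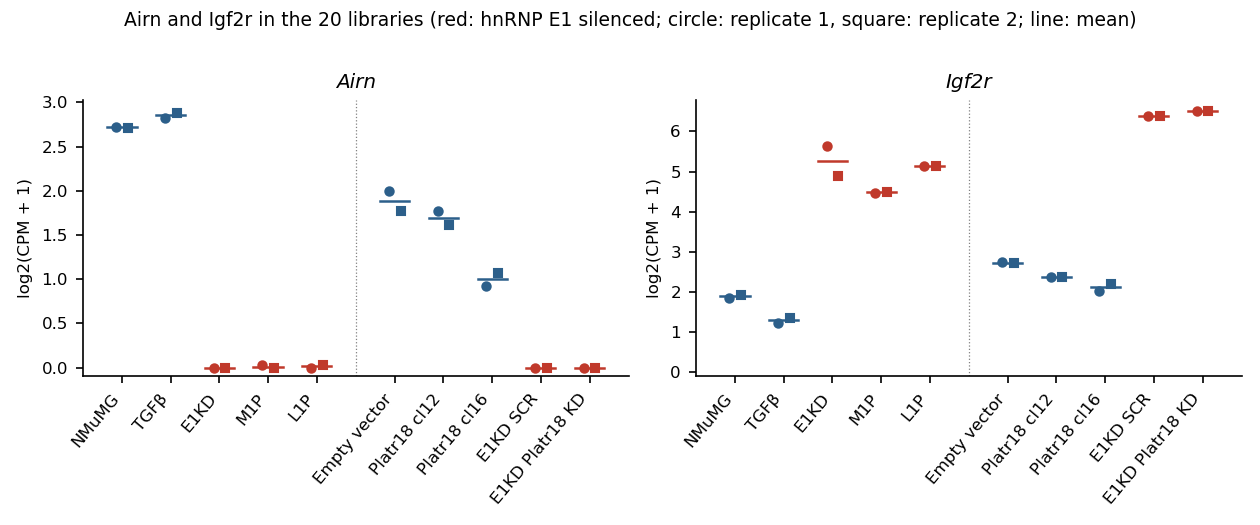
Level of Airn (left) and Igf2r (right) as log2(CPM + 1) in each of the 20 libraries, grouped by condition, with the progression series left of the dotted line and the Platr18 series right of it. Circles and squares are replicates 1 and 2, short lines are group means, and red marks groups with the hnRNP E1 shRNA. In red groups Airn lies at or near 0 while Igf2r lies above every blue group of its series.

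After TGFβ, which also drives epithelial-mesenchymal transition, Airn was still present. It was 1.12-fold higher after TGFβ (log2 fold change 0.14 ± 0.08), and Igf2r was 1.87-fold lower, at 1.35 and 1.57 CPM (log2 fold change -0.60 ± 0.16), with no overlap between the groups for either gene. The mesenchymal markers Vim, Cdh2 and Fn1 were summed. Their sum was 507 to 529 CPM in NMuMG, and higher after TGFβ (1283 to 1491 CPM) and in E1KD (1299 to 1771 CPM). In the Platr18 series the sum was 622 to 660 CPM in Empty vector, 766 to 873 CPM in clone 12 and 822 to 868 CPM in clone 16. It was 726 to 791 CPM in E1KD SCR and 490 to 500 CPM in E1KD Platr18 KD. The part of these markers in the values of Airn and Igf2r was not tested. The ratio of Airn to Igf2r was 2.12 and 1.97 in NMuMG and 4.51 and 4.06 after TGFβ. Whether the authors counted reads by strand was not given in the sources used here, and without strand the reads of Airn and Igf2r in their shared stretch cannot be told apart.

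After growth in the mouse Igf2r stayed above its level in NMuMG. M1P had 21.3 and 21.3 CPM of it and L1P 33.9 and 34.5 CPM, with log2 fold changes of -0.78 ± 0.16 for M1P against E1KD and 0.66 ± 0.16 for L1P against M1P. The first of these rests on the 2 unlike E1KD libraries, being -0.40 without E1KD replicate 1 and -1.16 without E1KD replicate 2. In the Platr18 clones Igf2r was lower than in Empty vector, at 4.17 and 4.22 CPM in clone 12 and 3.10 and 3.60 CPM in clone 16 (log2 fold change over both clones -0.49 ± 0.14). For Airn the clones differed, since clone 12 overlapped Empty vector (log2 fold change -0.19) and clone 16 lay below it (-0.88). The mean over both clones was 1.67-fold lower (log2 fold change -0.54 ± 0.07). The SEs given over both clones cover the spread between libraries, not between clones. Silencing of Platr18 left Airn at 0, and Igf2r was at 89.9 and 90.1 CPM in E1KD Platr18 KD (log2 fold change against E1KD SCR 0.12 ± 0.16).

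The neighbours of Airn and Igf2r were called at a share near that of all genes. Among the 16 other genes that passed the filter within 1 Mb on either side of Airn, 2 (12.5%) were past the call limits in E1KD against NMuMG, where 9.44% of all genes tested were, and 1 (6.25%) in E1KD SCR against Empty vector, where 5.98% were (unadjusted limma p under 0.001 and a log2 fold change of at least 1 in size). The gene past the limits in both was Tcte2, with log2 fold changes of -1.19 ± 0.10 and -1.28 ± 0.10, and the other was Agpat4, an acyltransferase gene, with 1.13 ± 0.11 and -0.35 ± 0.11; both are named here after their values were seen. The median log2 fold change of the 16 genes was 0.15 in the progression series and -0.06 in the Platr18 series. Of the pseudogenes that lie within Airn, RP23-432O2.3 had mean levels of 17.4 CPM (NMuMG), 32.5 CPM (E1KD), 5.79 CPM (Empty vector) and 7.67 CPM (E1KD SCR). RP23-432O2.2 had 1.98, 2.72, 0.253 and 0 CPM in the same order, and both are uncertain, since reads of a processed pseudogene can be shared with near-identical copies elsewhere.

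**Figure D2:**
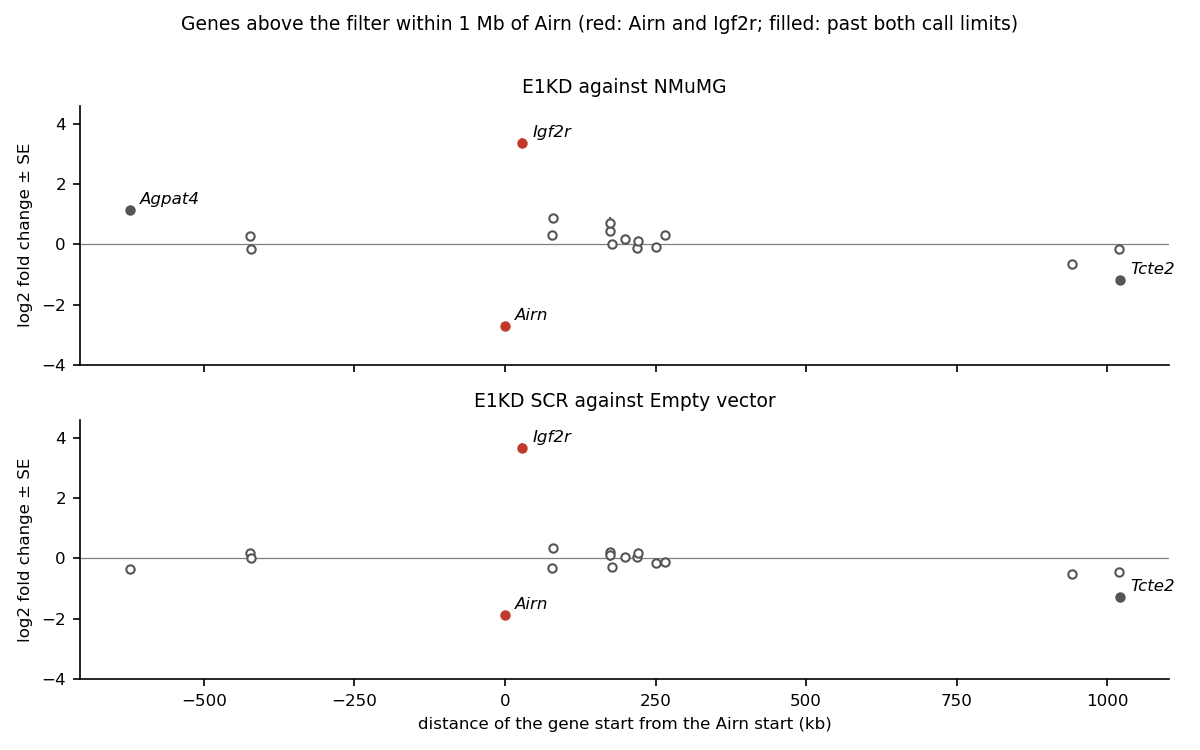
Log2 fold change ± SE on the log2(CPM + 1) scale of the 18 genes above the filter that lie within 1 Mb of Airn, against the distance of each gene's start from the Airn start in kb, for E1KD against NMuMG (top) and E1KD SCR against Empty vector (bottom). Red points are Airn and Igf2r, filled points are past both call limits, and error bars smaller than the points are hidden. Airn and Igf2r lie far from 0 on opposite sides in both panels.

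Igf2, the fetal growth factor that signals through the IGF1 receptor and is cleared by Igf2r, was at 17 reads or more in both E1KD and both L1P libraries and in 1 of the 2 E1KD SCR libraries, and at 10 reads or fewer elsewhere. Igf2 was at 1.07 and 1.03 CPM in E1KD and 0.0177 and 0.0189 CPM in NMuMG, which was 110 reads against 2 over the groups. The ratio of the means was 57.4, with an exact 95% interval of 15.5 to 480 that, like every interval here, covers counting error only. It was then lower in M1P, at 0.175 and 0.142 CPM, and between these levels in L1P, at 0.811 and 0.621 CPM, which was a 4.53-fold higher mean than in M1P with no overlap. E1KD SCR did not show the level of E1KD, with Igf2 at 0.0178 CPM in replicate 1 and 0.270 CPM in replicate 2, and E1KD Platr18 KD had 1 read in each library. The 6 libraries of Empty vector and the clones had 0 or 1 read. Most Igf2 values lie below the pseudocount of 1 CPM, so its log2 fold change in E1KD of 1.01 ± 0.08 (0.998 without E1KD replicate 1) understates the ratio. Beside these values, the immune markers Ptprc, Cd68, Adgre1 and Cd3e were summed. Their sum was 1.68 to 2.44 CPM in E1KD, 2.69 to 2.91 CPM in M1P and 1.86 to 2.12 CPM in L1P, with Adgre1 at 0 in these groups. The sum was 1.13 CPM in NMuMG, 3.24 to 3.48 CPM in clone 12 and 3.03 to 3.48 CPM in E1KD Platr18 KD. Those 3 groups had 0 or 1 Igf2 read a library. Most of the sum was Cd68, at 1.06 to 3.39 CPM over all libraries. Ptprc was at 0.374 CPM or less, Cd3e at 0.0698 CPM or less and Adgre1 at 0.00679 CPM or less. The part of the immune markers in the level of Igf2 was not tested. Igf2 shares 16049 bases of its strand with the annotated gene RP23-209O22.2, whose highest value was 0.272 CPM, and the division of reads between them is uncertain.

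H19, the noncoding RNA that shares a control region with Igf2, stayed at a few reads in every library. It had 3 and 4 reads in E1KD, 3 and 4 in E1KD SCR, 2 and 4 in E1KD Platr18 KD, 1 and 0 in M1P and 0 and 2 in L1P. There were 0 reads in NMuMG, TGFβ and Empty vector, and 1, 1, 0 and 1 reads in the 4 clone libraries. Against the floor of 3 reads a library E1KD exceeded NMuMG at least 1.21-fold and E1KD SCR exceeded Empty vector at least 1.23-fold. The highest H19 value in any library was 0.0739 CPM, so differences of a few reads or fewer cannot be resolved at this depth. Both genes lie on chromosome 7, H19 at chr7:142575529-142578144 and Igf2 at chr7:142650766-142666817, on the minus strand.

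Kcnq1ot1, the noncoding RNA of the Cdkn1c domain, was present throughout. NMuMG held 17.1 and 17.8 CPM of Kcnq1ot1, TGFβ-treated cells 19.1 and 17.6 CPM, E1KD 11.4 and 10.9 CPM, M1P 18.4 and 17.1 CPM, and L1P 17.2 and 17.2 CPM. Only E1KD stood apart in that series, at a 1.57-fold lower mean than NMuMG (log2 fold change -0.60 ± 0.12), and M1P overlapped NMuMG. In the Platr18 series it was at 63.7 and 50.2 CPM in Empty vector, 88.9 and 65.3 CPM in clone 12, 60.2 and 63.7 CPM in clone 16, 67.9 and 67.0 CPM in E1KD SCR and 75.0 and 79.0 CPM in E1KD Platr18 KD. There the silenced libraries lay above Empty vector by a log2 fold change of 0.25 ± 0.12, the opposite side from E1KD against NMuMG, and the value rests on Empty vector, being 0.08 without its replicate 2 and 0.42 without its replicate 1. Kcnq1ot1 lies at chr7:143203458-143296550 within the opposite strand of Kcnq1, whose own value was 0.0392 CPM or less.

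The protein-coding genes of that domain were low. Cdkn1c, which encodes the cell cycle inhibitor p57, had at most 2.08 reads in any library and was at 0 in 15 of 20, which is at or under the floor of 3 reads in every group, so no fold is given. Phlda2, a growth-restraining gene of the placenta, was at 2.48 and 1.98 CPM in NMuMG and 0.167 and 0.09996 CPM after TGFβ. That 16.7-fold lower mean (log2 fold change -1.51 ± 0.15) was the clearest difference of Phlda2, on 6 to 10 reads in the TGFβ libraries. In the silenced groups Phlda2 was at 2.09 and 1.24 CPM in E1KD, which overlapped NMuMG, and M1P (1.78 and 1.95 CPM) and L1P (1.69 and 1.42 CPM) were at a like level. In the Platr18 series the clones lay on opposite sides of Empty vector (1.07 and 0.927 CPM), clone 12 above at 2.01 and 2.65 CPM and clone 16 below at 0.277 and 0.503 CPM, so their joint mean describes neither. E1KD SCR was at 1.30 and 1.87 CPM and E1KD Platr18 KD at 1.71 and 1.70 CPM.

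Peg3, a zinc finger protein gene expressed from the paternal copy, was lower at each step of the progression series. The Peg3 values were 692 and 682 CPM for NMuMG, 215 and 194 CPM for E1KD, 54.1 and 54.4 CPM for M1P, and 27.8 and 29.2 CPM for L1P. The means were 3.36-fold lower in E1KD than in NMuMG, 3.77-fold lower in M1P than in E1KD and 1.90-fold lower in L1P than in M1P, with log2 fold changes of -1.75 ± 0.07, -1.89 ± 0.07 and -0.91 ± 0.07, and the first was -1.82 without E1KD replicate 1. No group of this series overlapped the next. TGFβ went the other way, with Peg3 at 1956 and 2027 CPM, a 2.898-fold higher mean than in NMuMG (log2 fold change 1.53 ± 0.07).

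The same order of silenced and other libraries was seen for Peg3 in the Platr18 series. Peg3 was at 632 and 587 CPM in Empty vector and 165 and 154 CPM in E1KD SCR, a 3.83-fold lower mean (log2 fold change -1.93 ± 0.07). Silencing of Platr18 moved it by 0.22 ± 0.07, to 178 and 193 CPM, and the clones lay above Empty vector, at 952 and 891 CPM in clone 12 and 742 and 722 CPM in clone 16. Usp29, a ubiquitin protease gene read from the same promoter region in the other direction, was lower with it at 5.06 and 4.62 CPM in E1KD against 16.04 and 15.3 CPM in NMuMG, and at 3.52 and 3.91 CPM in E1KD SCR against 13.03 and 12.2 CPM in Empty vector. In M1P Usp29 was at 0.663 and 0.691 CPM, and after TGFβ at 27.7 and 29.1 CPM, on the same side as Peg3 both times. The ratio of Peg3 to Usp29 stayed between 39.4 and 88.5 over the 20 libraries, while Peg3 itself ranged from 27.8 to 2027 CPM.

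Grb10, which encodes an adaptor that restrains insulin receptor signalling, was low throughout, and Meg3, the maternally expressed noncoding RNA of the Dlk1 domain, was not detectable at this depth in most libraries. Grb10 had 7 reads in each E1KD library, 0 and 5 in NMuMG, and 3 and 1 in Empty vector. It was highest in E1KD Platr18 KD, at 0.400 and 0.477 CPM against 0.135 and 0.238 CPM in E1KD SCR, a 2.35-fold higher mean with no overlap. Against Empty vector the mean in E1KD SCR was 6.72-fold higher, on 25 reads against 4, with an exact 95% interval of 2.24 to 25.7. Meg3 had 1 read in clone 12 replicate 1 and 0 in the other 19 libraries.

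**Figure D3:**
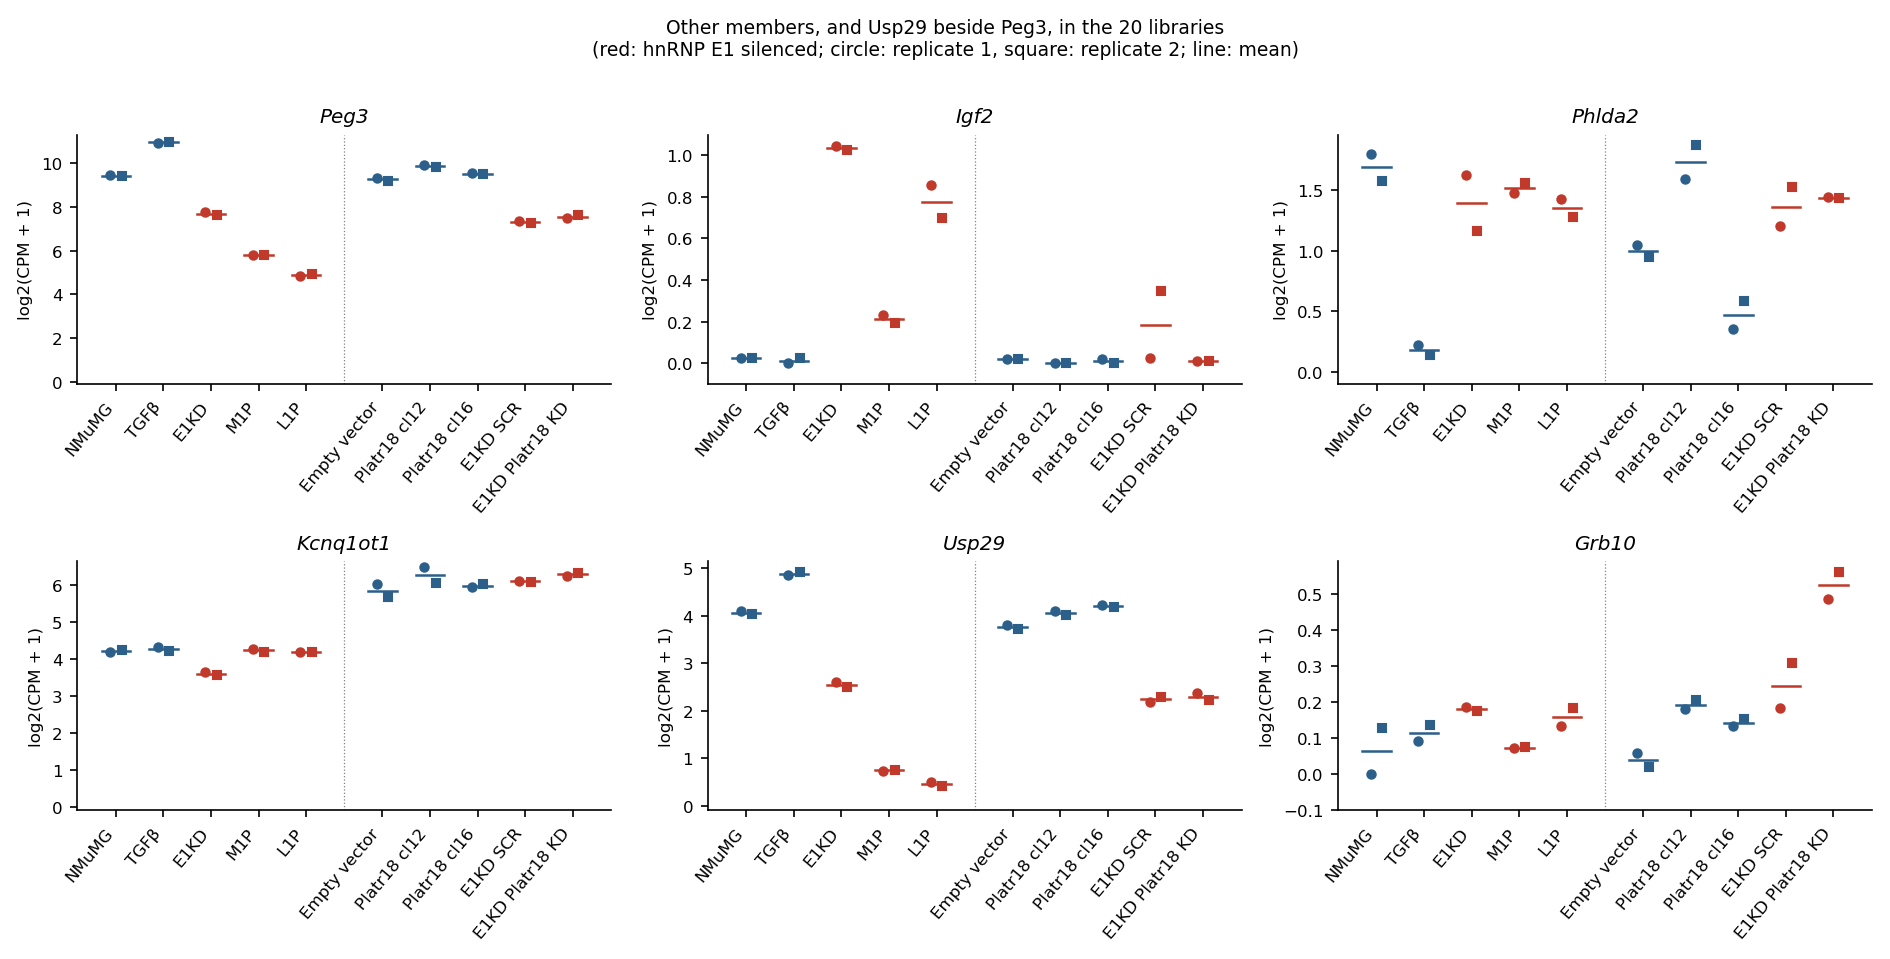
Level as log2(CPM + 1) of Peg3, Igf2, Phlda2, Kcnq1ot1 and Grb10, with Usp29 for comparison with Peg3, in each of the 20 libraries. Symbols and colours are as in the plot of Airn and Igf2r, and each panel has its own vertical scale. Peg3 and Usp29 step down from NMuMG to L1P and up after TGFβ, Igf2 rises above 1 CPM in E1KD, and Phlda2 is lowest after TGFβ.

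The 6 genes that could be fitted are set here beside the share of all genes called in each comparison. In E1KD against NMuMG 4 of the 6 were past the call limits (Airn and Peg3 lower, Igf2r and Igf2 higher), where 9.44% of the 17103 genes tested were called; Igf2 was under the limit without E1KD replicate 1. After TGFβ 2 of 6 were (Peg3 higher, Phlda2 lower; 13.5% of all genes), in M1P against E1KD 1 of 6 (Peg3 lower; 3.59%; also Igf2r without E1KD replicate 2), and in E1KD SCR against Empty vector 3 of 6 (Airn and Peg3 lower, Igf2r higher; 5.98%). For L1P against M1P (1.21% of all genes called), the clones against Empty vector (1.46%) and Platr18 silencing against E1KD SCR (1.48%), 0 of 6 were past the limits. Because the genes were chosen from these values, nothing is read from these counts. The median log2 fold change over all genes was 0.17 in E1KD against NMuMG and -0.17 in M1P against E1KD, and a rescaling by the median of ratios shifted these medians by -0.15 and 0.16; under it Igf2r was at 3.15, Peg3 at -1.96 and Igf2 at 0.91 in E1KD, the last then under the limit of 1.

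**Figure D4:**
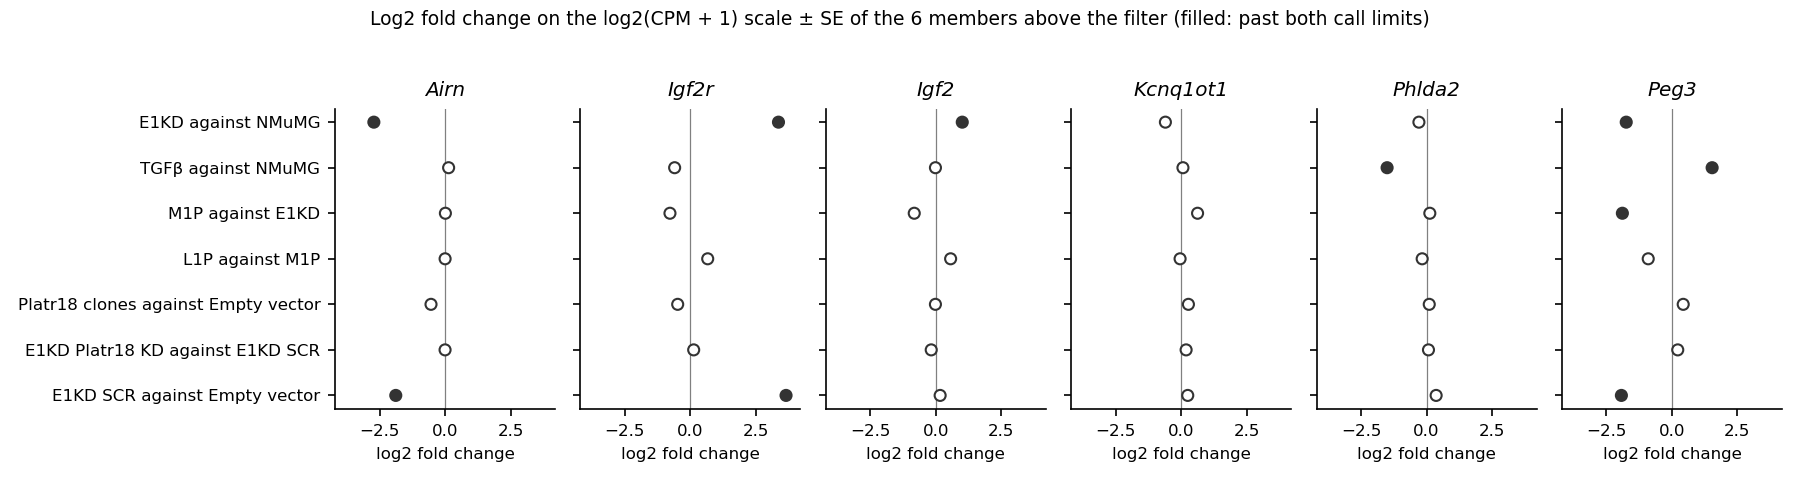
Log2 fold change on the log2(CPM + 1) scale, with its SE, of the 6 genes above the filter in the 7 comparisons, 1 panel a gene. Filled points are past both call limits, and error bars smaller than the points are hidden. Airn and Igf2r are far from 0 in the comparisons of silenced with other cells, and Peg3 also after TGFβ and in M1P.

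A list of 65 other imprinted genes is set beside these differences. It was chosen with earlier results of these data known, so its shares are descriptions. Whether each listed gene is imprinted in these cells was not measured. Of them, 63 were in the table and 33 passed the filter, and of these 11 were called in E1KD against NMuMG (5 higher, 6 lower; 33.3%, beside 9.44% of all genes) and 9 in E1KD SCR against Empty vector (3 higher, 6 lower; 27.3%, beside 5.98%). Of the 10 tested genes at the domains of the members, 5 (50%) and 3 (30%) were called in these comparisons, in that order. Of the 23 tested genes of other domains, 6 (26.1%) were called in each. The median log2 fold change of the 33 was 0.25 and -0.21 in these comparisons, beside 0.17 and 0.02 over all genes. Lower in both were Ppp1r9a, Cobl, Ddc (in E1KD SCR at -0.99 and under the limit without E1KD SCR replicate 2) and Usp29, and higher in both were Ampd3, Impact and Sfmbt2. After TGFβ, without silencing, Cobl and Ddc were also called lower (log2 fold changes -2.17 and -2.09). Impact and Ampd3 were also called higher there (1.62 and 1.46), while Ppp1r9a, Usp29 and Sfmbt2 were not called. In Empty vector the mean of Sfmbt2 was 0.0145 CPM and that of Ampd3 0.664 CPM, both under the filter of 1 CPM. They entered the fit through other groups, and such entry favours a call as higher. Ampd3, an AMP deaminase gene, went from 0.466 and 0.705 CPM in NMuMG to 16.5 and 12.1 CPM in E1KD (limma adjusted p = 1.11e-11) and from 0.661 and 0.666 CPM in Empty vector to 6.30 and 6.37 CPM in E1KD SCR (adjusted p = 1.93e-09). Impact, a translation regulator, was 6.94-fold and 6.33-fold higher (limma adjusted p = 1.45e-12 and 3.46e-12).

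Other imprinted genes were called in a single series or outside silencing. Ndn, a MAGE family gene, was at 6.78 and 6.18 CPM in NMuMG and at 0 in both E1KD libraries, at least 113-fold lower (limma adjusted p = 3.49e-15), while Empty vector already had only 0.0137 and 0.0290 CPM. After TGFβ 9 of the 33 were called (5 higher, 4 lower; 27.3%, beside 13.5% of all genes), and the largest difference was Dio3, a thyroid hormone deiodinase of the Meg3 domain, at 0.250 and 0.283 CPM against 36.5 and 37.1 CPM (limma adjusted p = 9.53e-15). In M1P against E1KD 5 were called (1 higher, 4 lower; 15.2%, beside 3.59%), among them Dio3 again, at 0.0873 and 0.0354 CPM against 15.1 and 14.3 CPM (limma adjusted p = 3.39e-13), and Dio3 was the 1 gene called in L1P against M1P (3.03%, beside 1.21%), higher at 1.67 and 2.00 CPM. In the clones 5 were called, all lower (15.2%, beside 1.46%). Snrpn had 0 reads in the 4 libraries of the 2 clones against 2.10 and 1.75 CPM in Empty vector (at least 44.3-fold, limma adjusted p = 2.55e-07). That p covers the spread between libraries, not between clones. Snrpn, Snhg14, Ppp1r9a and Ddc were also called lower in E1KD SCR against the same Empty vector (log2 fold changes -1.49, -1.42, -2.51 and -1.13). These differences were thus not particular to the clones. In E1KD Platr18 KD 2 were called (6.06%, beside 1.48%), Sfmbt2 and Zrsr1, both lower. Zrsr1 lies within Commd1 and Snrpn beside Snhg14, so the division of their reads is uncertain. The effect of silencing differed between the 2 series for 17 of the 33 (limma contrast of the 2 effects, adjusted p under 0.05), where 21.3% of all genes tested did.

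**Figure D5:**
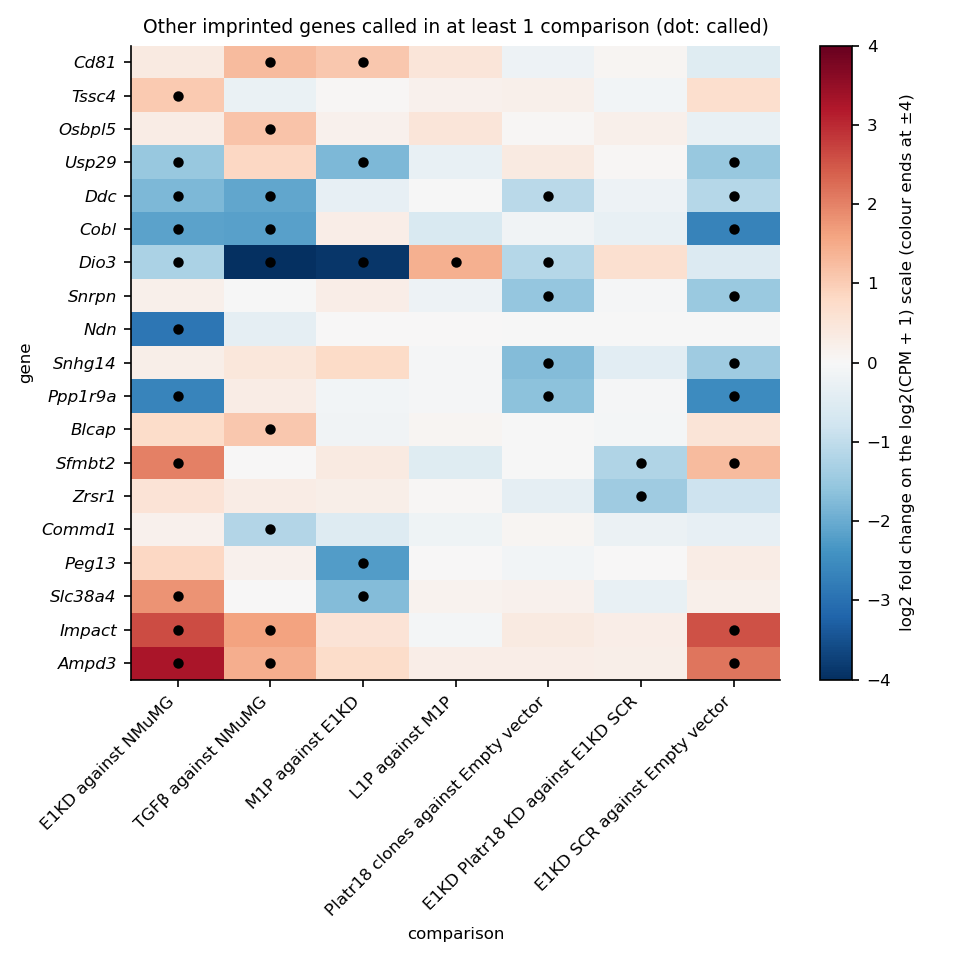
Log2 fold change on the log2(CPM + 1) scale of the 19 of 33 other imprinted genes called in at least 1 of the 7 comparisons. Red is higher and blue lower in the group named first, dots mark calls, and values past 4 in size take the end colour. Impact and Ampd3 are higher and Ppp1r9a and Cobl lower in both columns of silenced cells, and Dio3 is lowest after TGFβ and in M1P.

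Genes that set or keep imprints gave 3 calls over the 7 comparisons, of 22 listed and 18 that passed the filter. After TGFβ 2 of 18 (11.1%) were called beside 13.5% of all genes, and in E1KD SCR against Empty vector 1 of 18 (5.56%) beside 5.98%. Uhrf1, which brings the maintenance methyltransferase to replicated DNA, was at 11.2 and 12.3 CPM after TGFβ against 64.9 and 65.9 CPM in NMuMG (limma adjusted p = 7.92e-10), and Dnmt1, that methyltransferase, was at 22.1 and 29.4 CPM against 56.1 and 56.6 CPM (adjusted p = 0.00048), a call that was lost in 5 of 9 alternatives, among them leaving out NMuMG replicate 1, NMuMG replicate 2 or TGFβ replicate 1 (log2 fold change -0.91 to -1.31 over the libraries left out). Ehmt2, a histone H3 lysine methyltransferase gene, was at 34.9 and 38.7 CPM in E1KD SCR against 89.2 and 89.6 CPM in Empty vector (limma adjusted p = 1.35e-05). In E1KD against NMuMG, where Airn was at 0, 0 of the 18 were called by limma beside 9.44% of all genes, and 12 (66.7%) had an unadjusted p under 0.05 beside 61.4% of all genes, with the E1KD replicates apart, as for Dnmt1 at 89.0 and 43.7 CPM. Dnmt3b, named here after its values were seen, was under the limit of 1 on a scale that shrinks low genes. It reached 1 CPM only in E1KD (1.54 and 1.31 CPM) and in M1P replicate 1 (1.19 CPM). It thus passed the filter through groups where it was high, so no p is given. Its mean was 3.34-fold higher in E1KD than in NMuMG (log2 fold change 0.77 ± 0.09). In E1KD SCR it was 7.84-fold higher than in Empty vector (0.795 ± 0.085), which held 7 and 10 reads of it. The other 4 comparisons were M1P against E1KD, L1P against M1P, the clones against Empty vector and Platr18 silencing against E1KD SCR, with 0 calls by limma each and 14, 3, 2 and 6 unadjusted p under 0.05 (77.8%, 16.7%, 11.1% and 33.3%, beside 56.2%, 29.0%, 38.3% and 30.7% of all genes).

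The pattern of Airn over the 10 group means was compared by Pearson r on log2(CPM + 1), centred within each kind of library. The genes most like it were Dffb (0.985), RP24-487F9.4 (0.981), Shc1 (0.979), Endov (0.977) and Eid2b (0.977). These are descriptions over 10 points, 5 from each kind of library, and the centring removed differences in mean level between the kinds. The 5 genes kept part of their level where Airn was at 0, as for Shc1 at 91.0 CPM in E1KD against 178 CPM in NMuMG. Eid2b came nearest to a loss, at 0.771 CPM in E1KD against 5.32 CPM in NMuMG and 0.324 CPM in E1KD SCR against 2.71 CPM in Empty vector. H19 did not pass the filter, and no such pattern is given for it.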

How the data were processed

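RNA was extracted with Trizol from cultured cells and sequenced on an Illumina instrument. Per the labels and the study's methods, reads were aligned with Bowtie2 2.2.5 to GRCm38.p6 and assigned to GENCODE M18 genes by expectation maximization in Partek Flow. The authors deposited one table of CPM values with 0.0001 added to each, which was subtracted here, and a second table of their own fold changes and p-values for their comparisons, which was not used. Strand use and the library kit were not given in the sources used here.

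The step of 1 read was found from the low values, and 92.9% to 98.3% of values were whole reads within 0.1 read, so counts were not fully recovered and no count model was run. On the log2(CPM + 1) scale, limma 3.58.1 (lmFit, eBayes with a trend; R 4.3.3) was fitted over 20 libraries and 10 group means, with 10 residual degrees of freedom. It held 17103 genes, those reaching 1 CPM in 2 or more libraries. A gene was called at an unadjusted p under 0.001 and a log2 fold change of at least 1 in size, and adjusted p-values are Benjamini-Hochberg over all 17103. Comparisons stayed within a series, and the 2 clones were weighted equally. The SE and p over the clones cover the spread between libraries and not that between the 2 clones. The pseudocount of 1 shrinks the fold change of low genes, so ratios of mean CPM are given beside it, and a group at 0 is set to its floor of 3 reads a library. Intervals of ratios on few reads are exact binomial (95%).

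The 10 genes, the 65 other imprinted genes and the 22 regulators were chosen with earlier results of these data known. The other genes named are those called, at most 8 a comparison by smallest p, for Airn the 5 with the highest correlation, and those with a difference between the series; Peg3os and Rtl1 were not matched in the table. Platr18 is listed as Lncenc1, which was at 0.136 and 0.170 CPM in E1KD Platr18 KD, 2.92 and 3.10 CPM in E1KD SCR, and 813 CPM or more in the clones. Alternatives were a pseudocount of 0.1, no filter, median-of-ratios rescaling within a series, a fit within a series, the replicate number as a block, calls at an adjusted p under 0.05, and leaving out each library in turn. The script was first tested on simulated data. Tables used Python 3.11.15, numpy 2.4.6, pandas 2.3.3 and scipy 1.17.1, and figures matplotlib 3.10.9. Replicate numbers were not used as pairs: the labels tie them to no shared culture or day, and same-numbered libraries correlated at -0.13 to 0.13.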

Additional observations from a re-analysis of the deposited data

Results flagged for a closer look

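Kcnq1ot1 lay on opposite sides in the 2 series, with both E1KD libraries below both NMuMG libraries and both E1KD SCR libraries above both Empty vector libraries. The log2 effect of silencing was 0.85 higher in the Platr18 series, and this difference was not tested.

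For 17 of the 33 other imprinted genes the effect of hnRNP E1 silencing differed between the series by the limma contrast of the 2 effects (adjusted p under 0.05, Benjamini-Hochberg over all genes, 2 libraries a group). The compared lines also differ in their vectors and kind of library, and whether these take part was not tested. Given as the effect in the Platr18 series minus that in the progression series, on the log2(CPM + 1) scale, the difference was positive for Ndn at 2.88, Dio3 at 0.71, Ddc at 0.68 and Dhcr7 at 0.49. It was negative and largest in size for Snrpn at -1.69, Snhg14 at -1.67, Slc38a4 at -1.57, Zrsr1 at -1.36 and Ampd3 at -1.12. Smaller negative differences were those of Gnas at -0.99, Cd81 at -0.84, Sfmbt2 at -0.76, Osbpl5 at -0.60, Peg13 at -0.53, Atp10a at -0.52, Commd1 at -0.51 and Tspan32 at -0.43. Ndn was at 6.48 CPM in NMuMG and 0.0213 CPM in Empty vector, so there was little left to lose in the second, and Snrpn had the reverse, at 0.101 CPM in NMuMG and 1.93 CPM in Empty vector. Usp29, the partner of Peg3, differed by -0.02 (adjusted p = 0.927).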

How the results depend on the processing

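With a pseudocount of 0.1 the genes past the limits went from 1 to 2 of the 10 in M1P against E1KD (Igf2 joined Peg3) and from 0 to 1 in L1P against M1P (Igf2), the other imprinted genes called in M1P against E1KD went from 5 to 8, and the calls of regulators over the 7 comparisons went from 3 to 9. Leaving out 1 library gave 3 to 4 of the 10 in E1KD against NMuMG, 1 to 2 in M1P against E1KD (2 without E1KD replicate 2, when Igf2r joined Peg3) and 2 to 9 calls of regulators, 9 being without E1KD replicate 2. Over the same settings the other imprinted genes called ranged from 10 to 13 in E1KD against NMuMG, 5 to 6 in M1P against E1KD and 8 to 9 in E1KD SCR against Empty vector, and those whose silencing effect differed between the series from 13 to 25, again highest without E1KD replicate 2. The replicate block left 4 of the 10 genes past the limits in E1KD against NMuMG and 18 of the 33 with a difference between the series, and changed no other count by over 1.5 times; same-numbered libraries correlated at -0.13 to 0.13, so the numbers are not read as pairs. Crossing the numbers of clone 16, an alternative chosen after seeing the data, left 0 and 5 calls in the clones. Of 390 log2 fold changes of the members under single alternatives, 51 moved by more than the residual SD, and 0 of the called ones changed sign. Dnmt1 after TGFβ lost its call in 5 of its 9 alternatives, Tssc4 in E1KD, named here after its values were seen, in 2, and Cd81 in M1P and Ddc in E1KD SCR in 1 each. Depth limits Igf2, H19, Cdkn1c, Grb10 and Meg3, which had from 0 to 70.0 reads a library.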
